A study of Mus musculus with 66 samples.

Results

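Anxa3, Shisa8, Snx31, Pdlim3 and Nxf7 are 5 of the 24138 genes in an RNA-seq table of the mouse nucleus accumbens (NAcc), the ventral part of the striatum. They were picked on their level, which was higher in iMSN-D2RKO than in WT libraries, so the difference between the genotypes is described below without a test. Mice were male, on a C57BL/6J background and 3 to 5 months old. WT mice were compared with iMSN-D2RKO mice, in which both alleles of the dopamine D2 receptor gene carry loxP sites (D2R flox/flox) and Cre is driven by the promoter of the D1 receptor gene. That promoter is active in embryonic precursors of all medium spiny neurons (MSNs), and the intended result is loss of D2R from the indirect-pathway neurons (iMSNs), while D2R of other cells is left in place. At zeitgeber time 3 (ZT3, hours after lights on), mice of both genotypes received saline or 20 mg/kg cocaine, and NAcc punches were taken at ZT7, ZT11, ZT15, ZT19 and ZT23. Other mice of each genotype were sampled at ZT3, and their libraries stand at the start of both the saline and the cocaine series. The labels put these libraries in both series and do not say whether the mice were injected. Each of the 22 groups held 3 libraries, which gave 33 WT and 33 iMSN-D2RKO libraries.

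In iMSNs the D2 receptor couples to inhibitory G proteins and lowers cyclic AMP, and cocaine raises extracellular dopamine by blocking its reuptake. The 5 genes belong to unrelated families. Anxa3 encodes annexin A3, a protein that binds phospholipid membranes in the presence of calcium. Shisa8 (CKAMP39) is an auxiliary subunit of AMPA-type glutamate receptors. Snx31 is a sorting nexin, one of the proteins that bind endosomal lipids through a PX domain and sort cargo. Pdlim3 (ALP) carries a PDZ and a LIM domain and binds alpha-actinin on actin filaments. Nxf7 belongs to the nuclear RNA export factors, whose founding member Nxf1 carries mRNA through the nuclear pore.

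In the mouse genome GRCm38 (mm10), Anxa3 covers bases 96793339 to 96845966 of the plus strand of chromosome 5, and Pdlim3 covers 45885461 to 45919548 of the plus strand of chromosome 8. Shisa8 and Snx31 are both on the minus strand of chromosome 15, at 82206168 to 82212815 and at 36504062 to 36555573. Nxf7 lies on the minus strand of the X chromosome, at 135579555 to 135598777. Promoters, taken from RefSeq on GRCm38.p6 as 250 bases before and 50 bases from the transcription start on, were at hand for 3 of the 5 genes. Those of Pdlim3 (chr8:45885237-45885536, plus strand) and Shisa8 (chr15:82212766-82213065, minus strand) are shown because, among genes with a mean of at least 1 FPKM, each was the most similar to the other in level over the libraries, and are written 5′ to 3′. Capitals mark a cyclic AMP response element (CRE, TGACGTCA).
Pdlim3: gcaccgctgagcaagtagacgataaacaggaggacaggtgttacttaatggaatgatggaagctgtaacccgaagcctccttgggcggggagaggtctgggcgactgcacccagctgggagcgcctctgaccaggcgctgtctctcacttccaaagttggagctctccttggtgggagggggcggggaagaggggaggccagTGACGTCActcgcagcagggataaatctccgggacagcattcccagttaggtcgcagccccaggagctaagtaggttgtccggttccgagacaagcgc
Shisa8: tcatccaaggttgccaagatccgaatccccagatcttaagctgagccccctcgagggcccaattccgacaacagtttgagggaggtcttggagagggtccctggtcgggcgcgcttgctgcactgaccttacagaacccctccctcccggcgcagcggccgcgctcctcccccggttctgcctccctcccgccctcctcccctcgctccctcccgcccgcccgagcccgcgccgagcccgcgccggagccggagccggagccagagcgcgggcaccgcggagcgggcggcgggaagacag

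The CRE of Pdlim3 started at base 203 of its window, and the transcription start is base 251. Of 32851 promoters of this length, 1.79% held a CRE on either strand. Its first and last letters hold the shorter TGACG, once on each strand, which 20.8% of the promoters hold. The promoter of Shisa8 stood out for its base composition, with 71.3% G and C against a median of 52.67% over all promoters. None of the motifs searched was found in the windows of Shisa8 or Nxf7. The other motifs, also searched on both strands, were AP-1 (TGANTCA, in 7.81% of promoters), the E-box (CACGTG, in 7.15%) and EGR (GCGTGGGCG, in 0.612%), and none of these was found in the Pdlim3 window. A match of letters is a description and not a site of binding.

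Before the levels are given, 3 facts about the libraries bear on them. First, 2 libraries labelled iMSN-D2RKO, both replicate 2 after cocaine, at ZT7 and at ZT11, sat among the WT libraries in averages over genes. To place each library without using the 5 genes, 40 other genes that differed most between the genotypes (20 higher and 20 lower in iMSN-D2RKO, chosen without the library in question) were put on a scale on which 0 is the WT mean and 1 the iMSN-D2RKO mean. On this scale the library labelled iMSN-D2RKO at ZT7 was at 0.0373 and that at ZT11 at -0.109. The other 31 iMSN-D2RKO libraries ranged from 0.537 to 1.41 with a median of 1.01, and 31 of 33 WT libraries lay below the lowest of them. The exceptions were WT replicate 2 after cocaine at ZT19, at 0.973, and at ZT23, at 0.538. Over the 5 genes themselves the WT libraries lay between -0.453 and 0.434, these last 2 at -0.00562 and 0.170, and 30 of the 31 iMSN-D2RKO libraries lay above all of them. The 2 libraries in question were at -0.341 and 0.201. Single genes varied. In the library at ZT7, Anxa3 was above 32 of 33 WT libraries, and Shisa8, Snx31, Pdlim3 and Nxf7 above 1, 11, 3 and 24. In that at ZT11, Shisa8 and Nxf7 were above 32 and 29, and Anxa3, Snx31 and Pdlim3 above 14, 24 and 13. Over the 20 raised genes alone, replicate 2 of iMSN-D2RKO at ZT3 was at 0.00949, below the library at ZT7 at 0.295. Over the 20 lowered genes these were at 1.09 and -0.220. The 2 libraries in question were noticed from their values, and results are given with and without them.

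**Figure D1:**
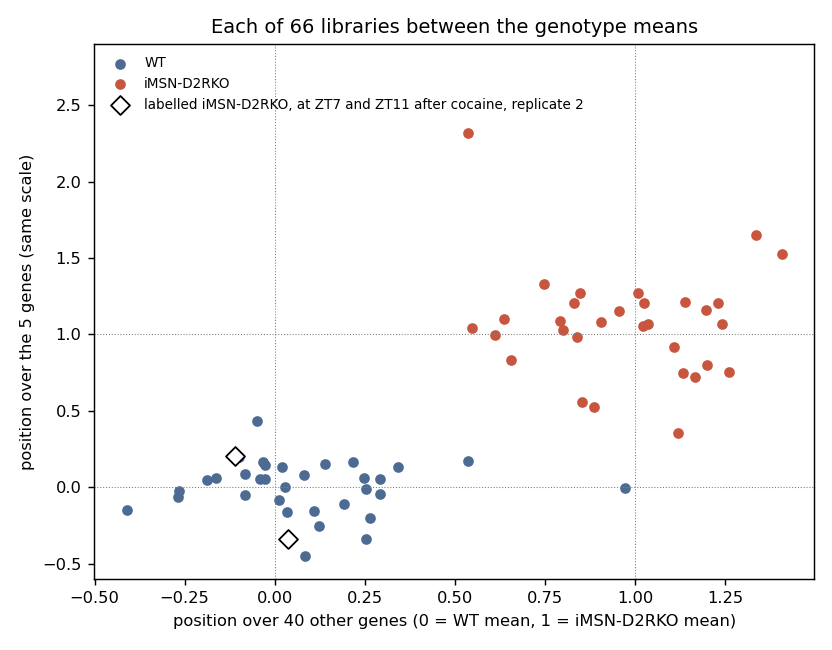
Position of each of the 66 libraries between the genotype means, over 40 other genes (x axis) and over Anxa3, Shisa8, Snx31, Pdlim3 and Nxf7 (y axis), where 0 is the WT mean and 1 the iMSN-D2RKO mean. Open diamonds are the 2 libraries labelled iMSN-D2RKO, which lie among the WT libraries at 0.0373 and -0.109 on the x axis and at -0.341 and 0.201 on the y axis.

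Second, 13 libraries (6 WT and 7 iMSN-D2RKO, 10 of them at ZT19 or ZT23) stood apart from the others of their groups in a principal component analysis of deviations from group means, whose first component held 43.6% of the variance. The library labelled iMSN-D2RKO at ZT7 is among them. Drd2 was higher in these libraries, with a median of 228 FPKM against 121 in the other WT libraries and 229 against 107 in the other iMSN-D2RKO libraries. Last, replicate 1 of iMSN-D2RKO at ZT7 after saline had a total of 690048 FPKM, against 364078 to 465297 in all other libraries, and the highest Anxa3, Shisa8, Drd2 and Penk of all. Penk, the enkephalin precursor of iMSNs, was at 9282 FPKM in it and at most 3399 FPKM in any other library. Markers of the striatum were present throughout, with Drd1 at 56.7 to 163 FPKM and the MSN marker Ppp1r1b at 609 to 3779 FPKM. The table gives 1 value for the whole Drd2 gene, which does not check the deletion of an exon. Drd2 had a median of 129 FPKM in WT and 112 FPKM in iMSN-D2RKO, and its level was not called different in ZT3 and saline libraries (log2 difference -0.02, SE 0.17, adjusted p = 0.98) or in cocaine libraries (-0.25, SE 0.19, adjusted p = 1).

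All 5 genes were expressed at low to moderate levels, in FPKM, which are corrected for transcript length. Over the 33 WT libraries the order of mean levels was Anxa3 (5.50 ± 0.951 FPKM, SD), Shisa8 (4.46 ± 1.39), Pdlim3 (1.197 ± 0.398), Nxf7 (0.386 ± 0.182) and Snx31 (0.195 ± 0.106). The ranges of neighbours in this order overlapped. Over the 33 iMSN-D2RKO libraries the means were 10.5 ± 3.88 FPKM for Anxa3, 9.67 ± 4.27 for Shisa8 and 2.75 ± 1.02 for Pdlim3. Nxf7 (1.01 ± 0.473) and Snx31 (1.01 ± 0.462) could not be ranked there. Anxa3 and Shisa8 reached 1 FPKM in all 66 libraries and Pdlim3 in 55. Snx31 reached it in 16 libraries and Nxf7 in 13, all of them iMSN-D2RKO, so these 2 genes passed the filter of 1 FPKM in at least 1 library only through the genotype for which they were picked. In tissue punches, more RNA per cell and more cells of a type cannot be told apart.

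**Figure D2:**
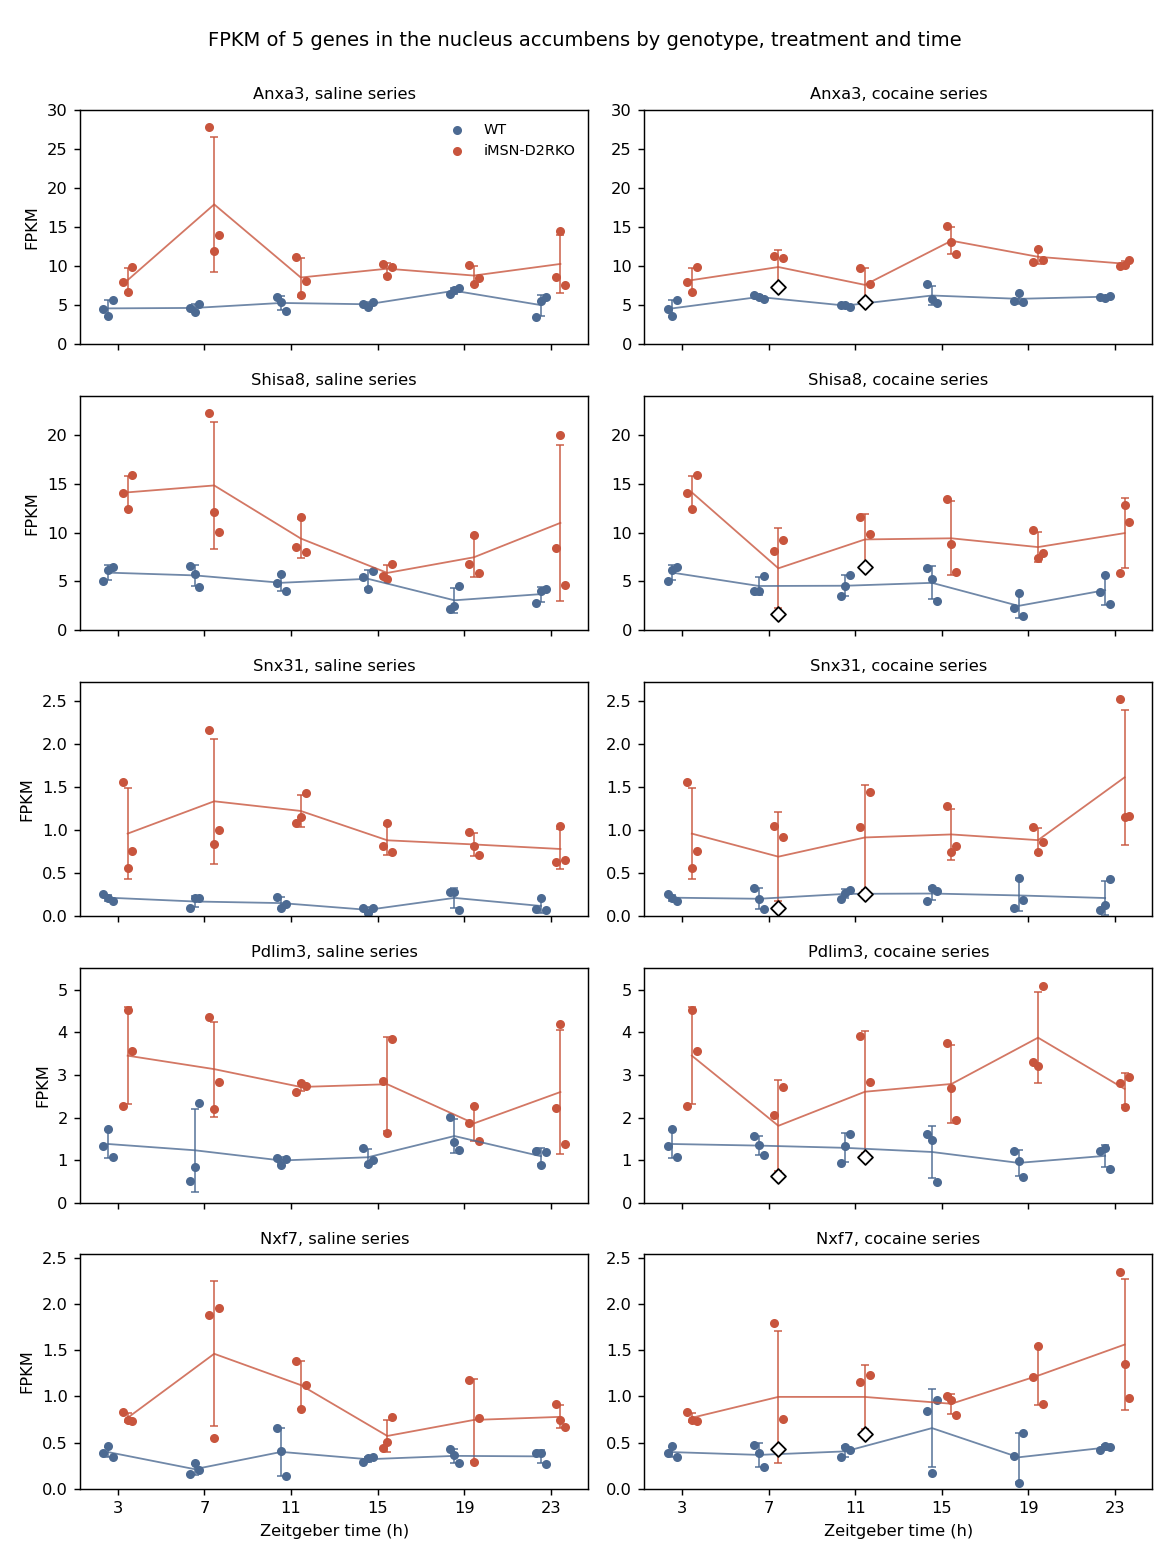
FPKM (y axes) of the 5 genes by zeitgeber time (x axis) in the saline and the cocaine series. Points are libraries, lines join the means of 3 libraries with bars of 1 SD, the ZT3 libraries are shown in both series, and open diamonds are the 2 libraries labelled iMSN-D2RKO that sat among the WT libraries. Anxa3 of iMSN-D2RKO lies above WT at every time point of both series, and Snx31 does so except for the 2 diamonds.

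Snx31 had the widest separation in relative terms. In WT libraries it ran from 0.0344 to 0.444 FPKM with a median of 0.204, and in iMSN-D2RKO libraries from 0.102 to 2.52 FPKM with a median of 0.983, which is 4.81 times the WT median. At ZT3 the WT libraries were at 0.257, 0.212 and 0.184 FPKM and the iMSN-D2RKO libraries at 1.56, 0.559 and 0.762 FPKM. Without the 2 libraries in question, the lowest of the other 31 iMSN-D2RKO libraries, 0.559 FPKM, was above the highest of 33 WT libraries. As those 2 were noticed from their values, this separation is a description of the libraries that were left. The only overlap came from the libraries labelled iMSN-D2RKO at ZT7, with 0.102 FPKM, and at ZT11, with 0.257 FPKM. The ratio of group means was lowest at ZT7 after cocaine, at 3.39, or 4.83 without the library in question, and highest at ZT15 after saline, at 11.6, where WT libraries were at their lowest mean of 0.0763 FPKM.

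Anxa3 was the gene whose genotypes were separated within all 11 combinations of treatment and time. Its WT libraries lay between 3.46 and 7.65 FPKM with a median of 5.48, and its iMSN-D2RKO libraries between 5.39 and 27.8 FPKM with a median of 10.1, or 1.85 times the WT median. In 28 of 33 iMSN-D2RKO libraries Anxa3 was above every WT library. The closest groups were those at ZT19 after saline, with 6.44, 6.89 and 7.17 FPKM in WT and 10.2, 7.69 and 8.49 FPKM in iMSN-D2RKO, a ratio of means of 1.29. The widest were at ZT7 after saline, with 4.64, 4.10 and 5.16 FPKM in WT and 27.8, 11.9 and 14.0 FPKM in iMSN-D2RKO, a ratio of 3.87. The highest of these values is from the library with the highest total, and without that library the highest Anxa3 of iMSN-D2RKO was 15.1 FPKM. Deviations of Anxa3 from its group means went with those of the total FPKM (r = 0.62 over 66 libraries, which share that total), and their part in its level was not tested.

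Shisa8 ran from 1.43 to 6.63 FPKM in WT libraries, with a median of 4.45, and from 1.67 to 22.3 FPKM in iMSN-D2RKO libraries, with a median of 8.88, or 2.0 times the WT median. It was above every WT library in 25 of 33 iMSN-D2RKO libraries. At ZT3 the libraries gave 5.07, 6.20 and 6.44 FPKM in WT and 14.1, 12.5 and 15.9 FPKM in iMSN-D2RKO, with the lowest iMSN-D2RKO value far above the highest of WT. At ZT15 after saline the groups met, with 5.47, 4.25 and 6.11 FPKM in WT and 5.59, 5.29 and 6.75 FPKM in iMSN-D2RKO. They also overlapped at ZT15 after cocaine, where WT had 6.33, 5.22 and 3.03 FPKM and iMSN-D2RKO 13.5, 8.88 and 5.94 FPKM, and at ZT7 after cocaine, where the library in question gave 1.67 FPKM.

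Shisa8 was lower in the set-apart libraries of both genotypes, and Pdlim3 in those of iMSN-D2RKO. For Shisa8 in WT, all 6 of them, at 1.43 to 2.82 FPKM, were below every one of the other 27, at 3.03 to 6.63 FPKM. In iMSN-D2RKO the median of the 7 set-apart libraries was 5.85 FPKM against 9.97 FPKM in the other 26. The ratio of set-apart to other medians was 0.486 and 0.587 in the genotypes, and it was 1.07 and 0.843 for Anxa3, 1.14 and 0.796 for Snx31, 1.02 and 0.582 for Pdlim3 and 1.18 and 0.814 for Nxf7. Without the 13 libraries the mean log2 difference of Shisa8 between the genotypes, over the 11 combinations, was 0.97 against 0.91 with all libraries.

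Pdlim3 ran from 0.491 to 2.34 FPKM in WT libraries (median 1.205) and from 0.629 to 5.10 FPKM in iMSN-D2RKO libraries (median 2.75), a ratio of medians of 2.28. It was above every WT library in 20 of 33 iMSN-D2RKO libraries. The groups at ZT11 after saline were tight, with 1.04, 0.892 and 1.03 FPKM in WT against 2.60, 2.80 and 2.75 FPKM in iMSN-D2RKO. At ZT19 after saline they overlapped, with 2.02, 1.43 and 1.24 against 1.87, 2.27 and 1.44 FPKM, and the ratio of means was 1.19. At ZT19 after cocaine the same ratio was 4.15, the highest of the 11, with 1.22, 0.985 and 0.598 FPKM in WT and 3.31, 3.22 and 5.10 FPKM in iMSN-D2RKO.

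Nxf7 ran from 0.0670 to 0.959 FPKM in WT libraries (median 0.383) and from 0.295 to 2.35 FPKM in iMSN-D2RKO libraries (median 0.915), a ratio of medians of 2.39. It overlapped most of the 5, with 14 of 33 iMSN-D2RKO libraries above every WT library. At ZT3 the WT libraries were at 0.383, 0.460 and 0.347 FPKM and the iMSN-D2RKO libraries at 0.826, 0.745 and 0.733 FPKM. Overlap at ZT15 after cocaine came from 2 WT libraries at 0.838 and 0.959 FPKM, beside 0.172 FPKM in the other, and the iMSN-D2RKO libraries there were at 1.003, 0.959 and 0.798 FPKM. At ZT19 after saline it came from 1 iMSN-D2RKO library at 0.295 FPKM.

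Each of the 5 genes had the higher mean in iMSN-D2RKO at 11 of 11 combinations, as did 30 of the 14643 genes that reached 1 FPKM in at least 1 library (0.205%). The count was 10 of 11 for Shisa8 without replicate 1 or replicate 3 and for Pdlim3 without replicate 3. The groups did not overlap at 11 combinations for Anxa3, 9 for Snx31, 8 each for Shisa8 and Nxf7 and 7 for Pdlim3. Without the 2 libraries in question these counts were 11, 11, 9, 9 and 9. Those 2 were left out after their values were seen, and all WT libraries were kept. Of all genes, 0.0546% were separated at 7 or more combinations. Because the genes were picked on this contrast, these shares are a description of the choice. On the log2(FPKM + 1) scale the mean difference over the 11 combinations was 0.91 for Shisa8, 0.78 for Anxa3, 0.74 for Pdlim3, 0.72 for Snx31 and 0.51 for Nxf7, which understates the relative difference of the genes below 1 FPKM.

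**Figure D3:**
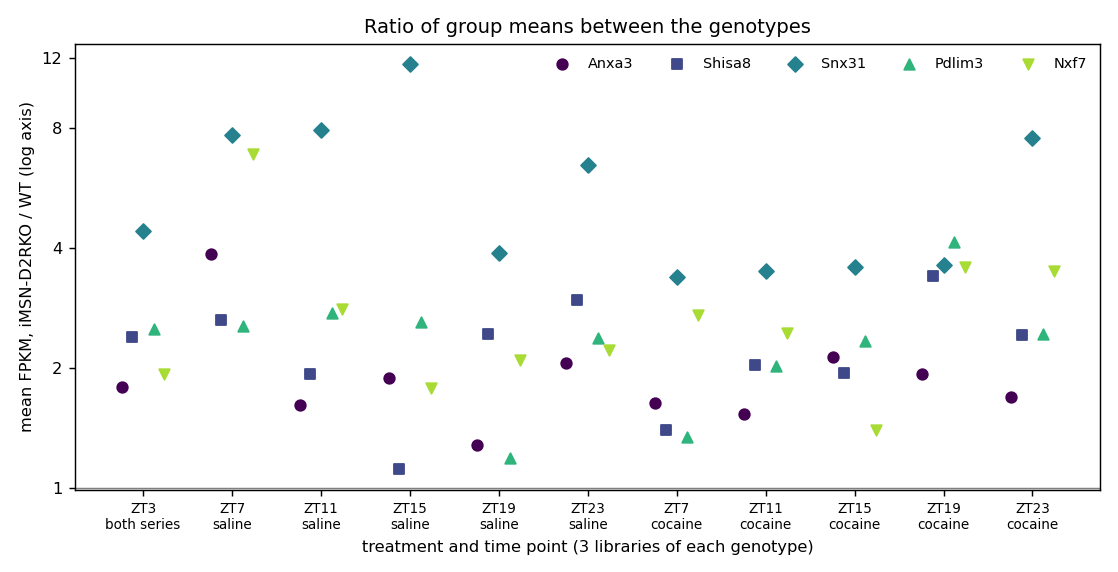
Ratio of the mean FPKM of 3 iMSN-D2RKO libraries to that of 3 WT libraries (y axis, log scale) at each of 11 combinations of treatment and time (x axis). All points lie above 1, from 1.11 for Shisa8 at ZT15 after saline to 11.6 for Snx31 at ZT15 after saline.

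Cocaine was the comparison that had no part in the choice of the genes, and it moved none of them to an extent that passed the test. The level after cocaine was compared with that after saline over ZT7 to ZT23, in 15 against 15 libraries of a genotype with time point as a factor, by limma on log2(FPKM + 1) with Benjamini-Hochberg adjustment over 14643 genes. No gene was called at an adjusted p under 0.05 in WT (0%) or in iMSN-D2RKO (0%), and 391 and 472 genes had an unadjusted p under 0.05. In WT, Shisa8 was at 1.43 to 6.33 FPKM after cocaine (median 3.98), and its log2 difference from saline was -0.12 (SE 0.11, 95% interval -0.35 to 0.11). Snx31 in WT was at 0.0727 to 0.444 FPKM after cocaine (median 0.206), with a difference of 0.11 (SE 0.05, interval 0.00434 to 0.21, adjusted p = 1). The differences of Anxa3 (0.11, SE 0.07), Nxf7 (0.11, SE 0.07) and Pdlim3 (-0.00395, SE 0.10) in WT had intervals that included 0.

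The log2(FPKM + 1) scale compresses values below 1 FPKM, where Snx31 and Nxf7 lay in WT. Over all libraries of a genotype, their coefficients of variation (SD over mean) were 54.0% and 47.2% in WT and 45.9% and 46.8% in iMSN-D2RKO. In iMSN-D2RKO the intervals were wider on the log2(FPKM + 1) scale. Shisa8 was at 1.67 to 13.5 FPKM after cocaine (median 8.88), with a log2 difference of -0.11 (SE 0.22, interval -0.56 to 0.34). Anxa3 was at 5.39 to 15.1 FPKM (median 10.7), with -0.02 (SE 0.13, interval -0.29 to 0.25). The differences were -0.03 for Snx31 (SE 0.12), 0.03 for Pdlim3 (SE 0.16) and 0.15 for Nxf7 (SE 0.12). Without the 2 libraries in question, all cocaine libraries, the 5 differences were positive, from 0.08 for Shisa8 (SE 0.18) to 0.25 for Nxf7 (SE 0.11), and the lowest adjusted p among them was 0.945. The effect of cocaine was also compared between the genotypes directly, and 0 of 14643 genes were called (0%, with 246 at an unadjusted p under 0.05). The difference in effect, iMSN-D2RKO minus WT, ran from -0.13 for Snx31 (SE 0.13) to 0.04 for Nxf7 (SE 0.14). With its interval of -0.49 to 0.52, that of Shisa8 (0.01, SE 0.25) was the least precise. For Snx31 and Nxf7, below 1 FPKM in WT, the scale understates a relative effect more in WT than in iMSN-D2RKO. Their difference in effect is therefore not one of relative change.

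**Figure D4:**
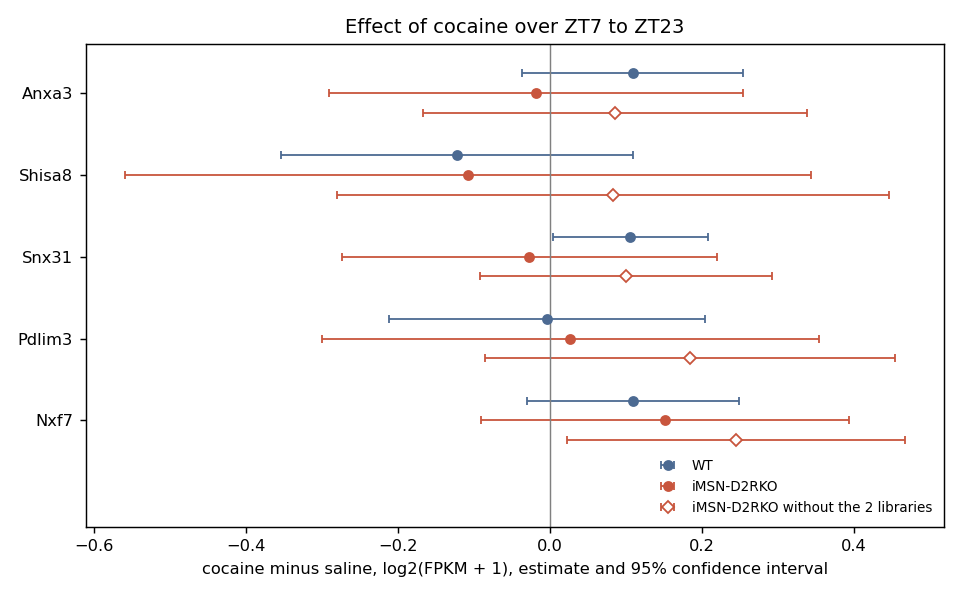
Cocaine minus saline on the log2(FPKM + 1) scale (x axis), estimate and 95% confidence interval, for each gene in WT and in iMSN-D2RKO, the latter with all libraries (filled) and without the 2 libraries labelled iMSN-D2RKO that sat among the WT libraries (open). Estimates run from -0.12 to 0.25.

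A test for an effect of cocaine at any of the 5 time points allows it to differ between them. In iMSN-D2RKO it called 0 genes (0%), and the adjusted p of each of the 5 was 0.713. All 5 had an unadjusted p under 0.05, from 0.00575 for Anxa3 to 0.0462 for Pdlim3, as did 6.26% of all genes. Without the 2 libraries in question the unadjusted p was 0.0364 for Anxa3 and Nxf7, 0.0569 for Snx31, 0.0673 for Pdlim3 and 0.256 for Shisa8, and 2.81% of all genes were under 0.05. Without the 13 set-apart libraries it was under 0.05 for none of the 5, from 0.0595 for Nxf7 to 0.604 for Pdlim3, against 3.95% of all genes. Without the library with the highest total it was 0.0476 for Anxa3, 0.0426 for Nxf7, 0.0605 for Snx31, 0.113 for Pdlim3 and 0.167 for Shisa8, against 2.9% of all genes. In WT it called 3 genes (0.0205%), none of the 5, and their adjusted p was 1. Snx31 and Nxf7 stayed below 1 FPKM in all WT libraries, so for them this result in WT says little. By time point, Anxa3 at ZT7 and Pdlim3 at ZT19 had cocaine and saline libraries that did not overlap in either genotype and moved in opposite directions, a difference that was not tested. Of all genes, 2.74% did so at 1 or more of the 5 time points.

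Over the saline series, the ratio of the highest to the lowest group mean was larger in iMSN-D2RKO than in WT for 4 of the 5 genes. This difference was not tested, and its share over all genes was not counted. The ratio was 1.49 in WT and 2.18 in iMSN-D2RKO for Anxa3, and 1.92 and 2.53 for Shisa8. Snx31 was the exception, with 2.85 and 1.71. Over the cocaine series the exception was Shisa8, with 2.36 in WT and 2.23 in iMSN-D2RKO, and Snx31 was at 1.30 and 2.33. In the saline series, Anxa3, Shisa8, Snx31 and Nxf7 had their highest iMSN-D2RKO mean at ZT7, in the group that holds the library with the highest total. That library gave 27.8 FPKM for Anxa3, beside 11.9 and 14.0 FPKM in its group, and 22.3 FPKM for Shisa8, beside 12.2 and 10.1 FPKM. By JTK_CYCLE, a rank test for rhythms with periods of 20 or 24 h, 1383 genes were called rhythmic in WT after saline (9.44%) at a corrected p under 0.01, and none of the 5 was among them. Snx31 and Nxf7 reached at most 0.444 and 0.959 FPKM in WT libraries and were tested there only through the iMSN-D2RKO libraries. For these 2 genes the lack of a call in WT says little. In WT after cocaine 1095 genes were called (7.48%), in iMSN-D2RKO after saline 371 (2.53%) and after cocaine 159 (1.09%). The only call among the 5 was Shisa8 in iMSN-D2RKO after saline (corrected p = 0.00533 by the exact null of JTK_CYCLE), with a period of 24 h and a peak at ZT5. Its group means there were 14.1 FPKM at ZT3, 14.9 at ZT7, 9.41 at ZT11, 5.88 at ZT15, 7.48 at ZT19 and 11.01 at ZT23. The last of these spans 8.43, 20.0 and 4.61 FPKM in its 3 libraries.

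In the same exact test this call did not hold with median-ratio scaling (corrected p = 0.0106), without the 13 set-apart libraries (0.0318), with their score removed (0.0809), or without replicate 1 (0.208), replicate 2 (0.0499), replicate 3 (0.0286) or ZT19 (0.0418). The part of the set-apart libraries in the rhythm was not tested further. In WT the corrected p of Shisa8 was 0.133 after saline and 0.840 after cocaine, with its lowest mean at ZT19 in both series, 3.07 and 2.50 FPKM, where 4 of the 6 WT libraries are set-apart ones. The rhythm itself, modelled as a 24 h cosine and sine, was compared between the genotypes, and 0 genes were called after saline (0%, 378 at an unadjusted p under 0.05) or after cocaine (0%, 910 at an unadjusted p under 0.05). For Shisa8 the adjusted p of this difference was 0.975 and 0.578.

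The relatives of the 5 genes were listed by symbol, with 91 other genes in 6 lists, of which 74 could be tested. The genotypes were compared in the ZT3 and saline libraries, where 29 of 14643 genes were called (0.198%), and separately in the cocaine libraries, where 7 were called (0.0478%), and 0 of the 74 relatives were called in either, which is near these shares for a list of that size. The medians of log2 differences, iMSN-D2RKO minus WT, are given in this order and stood at 0.01 and 0.00904 for all genes. Among the other annexins the median of 6 genes was 0.12 and 0.06, and 0.22 and 0.03 without the 13 set-apart libraries. Anxa6, the most abundant of them, was at medians of 41.4 FPKM in WT and 44.98 FPKM in iMSN-D2RKO, with 0.15 in ZT3 and saline libraries (SE 0.08, adjusted p = 0.527).

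For the Shisa family, the medians of 6 other genes were -0.06 and -0.10. Shisa7, also an AMPA receptor auxiliary subunit, was at 55 FPKM in WT and 48.9 FPKM in iMSN-D2RKO, with -0.13 (SE 0.10, adjusted p = 0.703). Shisa2 had the highest difference of the 6, at medians of 3.15 FPKM in WT and 4.14 FPKM in iMSN-D2RKO, with 0.18 (SE 0.09, adjusted p = 0.518) and 0.46 in cocaine libraries (SE 0.11, interval 0.23 to 0.68, adjusted p = 0.227). Among AMPA receptor subunits and their other auxiliary proteins the medians of 13 genes were -0.03 and 0.01. The 29 other sorting nexins had medians of -0.01 and 0.03, and the 9 PDZ-LIM and actinin genes 0.02 and -0.02. Pdlim7, the PDZ-LIM relative with the highest level, was at 48.3 FPKM in WT and 49.7 FPKM in iMSN-D2RKO. Of 11 genes of mRNA export, 11 had a positive difference in ZT3 and saline libraries, with a median of 0.10, and 8 in cocaine libraries, with a median of 0.05. Without the 13 set-apart libraries 9 and 5 of the 11 were positive. Nxf1 itself was at 27.0 and 29.2 FPKM, with 0.11 (SE 0.05, adjusted p = 0.45) and -0.04 (SE 0.06, adjusted p = 1).

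**Figure D5:**
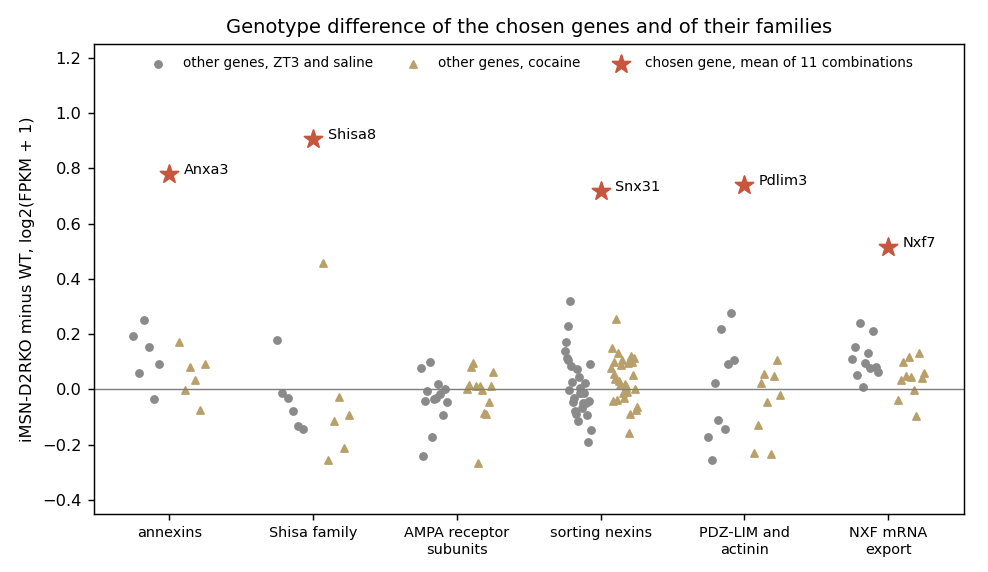
Difference between the genotypes on the log2(FPKM + 1) scale (y axis) for the tested relatives of the 5 genes by family (x axis), circles in ZT3 and saline libraries and triangles in cocaine libraries. Stars are the chosen genes, as means over 11 combinations from 0.51 to 0.91. They were picked on this difference and the relatives were not, so their place above every relative follows from the choice.

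None of the tested neighbouring genes on the chromosome was called higher in iMSN-D2RKO. Of all 14643 genes, 20 were called higher in ZT3 and saline libraries and 7 in cocaine libraries, so this is near the share of all genes. Srebf2, a regulator of cholesterol synthesis, ends 0.789 kb from the end of Shisa8 on the opposite strand. It was lower in iMSN-D2RKO in ZT3 and saline libraries, by 0.27 on the log2 scale (log2 difference -0.27, SE 0.06, adjusted p = 0.0372), with medians over all libraries of 66.2 FPKM in WT and 57.0 FPKM in iMSN-D2RKO. In cocaine libraries it was not called (-0.14, SE 0.07, adjusted p = 1), and in ZT3 and saline libraries the call did not hold without any 1 of the replicates (adjusted p = 0.0971 to 0.885). Fras1 beside Anxa3 (-0.02, SE 0.08), Ankrd46 and Pabpc1 beside Snx31 (-0.07, SE 0.04, and 0.17, SE 0.16) and Sorbs2 and Ccdc110 beside Pdlim3 (-0.00658, SE 0.12, and 0.12, SE 0.06) were not called in either comparison. Gm8013, Tnfrsf13c, AV320801 and Prame, the other neighbours, did not reach 1 FPKM.

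Lists of cell type markers, with 123 tested genes, held 1 called gene in either comparison. The shares over all genes were 0.198% in ZT3 and saline libraries and 0.0478% in cocaine libraries. The called marker was Penk. It was higher in iMSN-D2RKO by 0.76 (SE 0.15, adjusted p = 0.0189) in ZT3 and saline libraries and by 0.69 (SE 0.13, adjusted p = 0.0265) in cocaine libraries, with medians of 1317 and 2201 FPKM. The iMSN list as a whole, 9 tested genes with Penk among them, had a median of 0.02 with 6 positive in ZT3 and saline libraries (lowest -0.47). In cocaine libraries the median was -0.02 with 4 positive (lowest -0.25). Without the 13 set-apart libraries the differences of Penk were 0.79 and 0.70 and were not called (adjusted p = 0.067 and 0.0682). The calls were also lost without replicate 2 or 3 in ZT3 and saline libraries (adjusted p = 0.831 and 0.651) and without any 1 replicate in cocaine libraries (adjusted p = 0.274 to 1). The 9 tested markers of direct-pathway neurons had medians of -0.02 in ZT3 and saline libraries and -0.00922 in cocaine libraries, with 3 positive in each. Without the 2 libraries in question 1 of them, Drd1, was called as well in cocaine libraries, where 4 of 9 were positive and the median was -0.00965. With all cocaine libraries Drd1 was at 0.48 (SE 0.11, adjusted p = 0.199). A marker of direct-pathway neurons was also called higher in cocaine libraries without the 13 set-apart libraries. Ependymal and choroid plexus markers had the highest median difference in ZT3 and saline libraries, 0.34 with 10 of 10 genes positive and 0 called. Their summed level there ran from 14.4 to 138 FPKM in WT and from 18.95 to 1199 FPKM in iMSN-D2RKO, and none was at 0 in all libraries. In cocaine libraries it ran from 13.7 to 375 FPKM in WT and from 16.7 to 117 FPKM in iMSN-D2RKO, with a median difference of 0.09 and 6 of 10 positive, or -0.19 and 2 of 10 without the set-apart libraries. Oligodendrocyte markers had a median of -0.20 with 0 of 10 positive in ZT3 and saline libraries and -0.06 with 2 of 10 in cocaine libraries. Without the set-apart libraries these were -0.10 with 2 of 10 and 0.00624 with 6 of 10. In ZT3 and saline libraries, smooth muscle and mural markers, whose cells hold much actin, summed to 74.2 to 104 FPKM in WT and 76.8 to 132 FPKM in iMSN-D2RKO, with a median difference of -0.03. Their part in the levels of the 5 genes was not tested.

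The levels of the 5 genes went together across the 66 libraries, which differ in genotype, and much less within a genotype. The correlation of log2(FPKM + 1) was from 0.54 for Shisa8 and Nxf7 to 0.80 for Snx31 and Nxf7. Over the 33 WT libraries the 10 pairs ranged from -0.23 to 0.19, and over the 31 iMSN-D2RKO libraries from 0.12 to 0.59. Pdlim3 and Shisa8, whose promoters are shown above, had 0.76 over all libraries, 0.12 over WT and 0.57 over the 31 iMSN-D2RKO libraries, and in the latter they share the set-apart libraries. Among 12945 genes with a mean of at least 1 FPKM, the gene most like Anxa3 over all libraries was Penk (r = 0.84), followed by 9230009I02Rik (0.80) and Bag5 (0.74). Among the same 12945 genes, which leave out Snx31 and Nxf7 for their low means, Nxf7 was most like 9230009I02Rik (0.76), Anxa3 (0.73) and Drd1 (0.69). Snx31 was most like Anxa3 (0.79), Pdlim3 (0.76) and Fst (0.73). With the 2 left-out genes counted, Snx31 and Nxf7 were closest to each other (0.80), and Pdlim3 was closer to Snx31 (0.7592) than to Shisa8 (0.7555). Fst encodes follistatin, an antagonist of activins, and was at 1.21 to 2.89 FPKM in WT and 1.39 to 5.84 FPKM in iMSN-D2RKO. Again among the 12945 genes, Shisa8 was most like Pdlim3 (0.76) and Pfkl (0.75), and Pdlim3 like Shisa8, Anxa3 (0.74) and 9230009I02Rik (0.72). These correlations are descriptions over libraries that share their genotype.

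Within groups, whose libraries share a genotype label, other genes came first. The iMSN-D2RKO groups at ZT7 and ZT11 after cocaine hold the 2 libraries in question. Deviations of Shisa8 from its group means were most like those of Rprml (r = 0.85), Mtx1 (0.85) and Hint2 (0.84), and its correlation with the score of the set-apart libraries was -0.78. For Nxf7 the nearest were Vrk1 (0.77), Parp3 (0.65) and Pcsk2 (0.63). Anxa3 was nearest to Arl6ip4 (0.76), Blmh (0.74) and Cd3eap (0.74), Pdlim3 to Msrb1 (0.66), Nsmf (0.62) and Stmn4 (0.62), and Snx31 to Xrra1 (0.59), Alkbh3 (0.56) and Grtp1 (0.55). These 15 correlations ran from 0.49 (Snx31 and Alkbh3) to 0.86 (Shisa8 and Rprml) without the 2 libraries in question. None of these 15 genes was called different between the genotypes. Of all genes, 0.198% were called in ZT3 and saline libraries and 0.0478% in cocaine libraries, so this is near the share of all genes.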

How the data were processed

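RNA of NAcc punches was sequenced by the authors from stranded poly(A) libraries as single-end reads and aligned to mm10 with TopHat and Bowtie2. The deposited values are FPKM per gene, which the authors computed with Cufflinks and Cuffnorm from these reads. CASAVA 1.8.2 is named in the submitters' processing notes. The table lists the 6 ZT3 libraries in 2 columns each with identical values, and these were counted once, which left 66 libraries. Read numbers are unknown, so precision was taken from replicates. The design text gives 3 animals per time point, and the sample labels do not tie each library to an animal, so p-values measure the spread between samples.

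Levels were compared with limma 3.58.1 in R 4.3.3 (trend, Benjamini-Hochberg adjustment, threshold 0.05) on log2(FPKM + 1), for 14643 genes at 1 FPKM in at least 1 library. JTK_CYCLE was written in Python 3.11.15 and run on FPKM at a corrected p under 0.01, with outliers removed by Dixon's test at 95%. The scripts were tested on simulated data. The set-apart libraries are those with a score above 30 on the first axis of deviations from group means, over 9584 genes with a mean above 5 FPKM. Genes named beside the 5 are Drd2, called genes and the highest-level gene of marker lists, the nearest neighbours, and the 3 most similar genes of each kind, of which 1 is not reported here. Anxa6, Shisa2, Shisa7, Pdlim7, Nxf1 and Drd1 were named after their values were seen. The 5 genes and the lists were chosen with earlier results of these data known. Alternatives were another pseudocount, other filters, median-ratio scaling, the set-apart score, left-out libraries and a replicate block. Libraries of the same replicate number did not consistently deviate together, so replicates were not paired. Between saline and cocaine r ran from -0.771 to 0.608 (median -0.11, 7 of 30 above 0.1). Between the genotypes it ran from -0.742 to 0.651 (14 of 33 above 0.1), with a median of 0.0187 against 0.0158 for other replicate numbers.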

Additional observations from a re-analysis of the deposited data

Results flagged for a closer look

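Anxa3 at ZT7 moved in opposite directions after cocaine in the 2 genotypes, with no overlap in either, and the difference was not tested. In WT the libraries were at 4.64, 4.10 and 5.16 FPKM after saline and 6.34, 6.04 and 5.73 FPKM after cocaine, a ratio of means of 1.303. In iMSN-D2RKO they were at 27.8, 11.9 and 14.0 FPKM after saline and 11.3, 7.30 and 11.02 FPKM after cocaine, a ratio of 0.5515. The value of 27.8 FPKM is from the library with the highest total and that of 7.30 FPKM from the library labelled iMSN-D2RKO that sat among the WT libraries, and the groups do not overlap without them either.

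Pdlim3 at ZT19 did the same in reverse, also untested. In WT it was at 2.02, 1.43 and 1.24 FPKM after saline and 1.22, 0.985 and 0.598 FPKM after cocaine, a ratio of 0.5968. In iMSN-D2RKO it was at 1.87, 2.27 and 1.44 FPKM after saline and 3.31, 3.22 and 5.10 FPKM after cocaine, a ratio of 2.083. Of the 12 libraries at ZT19, 6 are set-apart ones, none of them among the iMSN-D2RKO cocaine libraries. Of all 14643 genes, 401 (2.74%) showed such opposite directions without overlap at 1 or more of the 5 time points.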

How the results depend on the processing

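The mean difference of each of the 5 genes between the genotypes was positive under all 9 alternatives. The genes were picked on this difference in the same libraries, so its sign follows from the choice and is no test. With a pseudocount of 0.1 it was 1.87 for Snx31, 1.10 for Pdlim3 and 1.17 for Nxf7. Of 166 estimates of cocaine effects and their difference in the 5 genes, 143 kept their direction and 23 turned it. None was called, nor any of 116 F tests for cocaine at any time, which have no direction. Over all settings the adjusted p ranged from 0.565 to 1 for cocaine in WT, 0.56 to 1 in iMSN-D2RKO, 0.628 to 1 for the difference, and 0.806 to 1 and 0.257 to 1 for cocaine at any time in WT and iMSN-D2RKO. In WT, Pdlim3 turned to 0.00257 with median-ratio scaling, 0.11 without the 13 libraries and 0.00117 when the score was a covariate, and ran from -0.11 to 0.14 over left-out replicates, as Shisa8 did from -0.22 to 0.00192. In iMSN-D2RKO, left-out replicates gave -0.0851 to 0.0388 for Anxa3, -0.31 to 0.17 for Shisa8, -0.12 to 0.13 for Snx31 and -0.0917 to 0.21 for Pdlim3. Without the set-apart libraries Pdlim3 was at -0.061. Chosen after seeing the data, leaving out the 2 libraries gave 0.0851 for Anxa3, 0.0832 for Shisa8 and 0.10 for Snx31, and leaving out the library with the highest total 0.06996 for Anxa3 and 0.0316 for Snx31. The difference in cocaine effect ran, over left-out replicates, from -0.31 to 0.40 for Shisa8, -0.27 to 0.0391 for Snx31, -0.24 to 0.32 for Pdlim3 and -0.11 to 0.23 for Nxf7. It was -0.0144 for Shisa8 with the score and -0.17 for Pdlim3 without the set-apart libraries.

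Called genes for cocaine at any time in WT were 235 without the 13 libraries, 6 with the score and 0 to 7 over left-out replicates, and in iMSN-D2RKO 0 to 1. Genotype differences in ZT3 and saline libraries were 51, 145 and 8 to 11, and in cocaine libraries 14, 25 and 0 to 6, or 13 without the 2 libraries. JTK_CYCLE calls in WT after saline, WT after cocaine, iMSN-D2RKO after saline and iMSN-D2RKO after cocaine were 3370, 2802, 1631 and 603 at a corrected p under 0.05. They were 907, 341, 178 and 274 without the set-apart libraries and 715, 488, 145 and 84 without ZT19. Over left-out replicates they ran from 208 to 800, 214 to 858, 82 to 946 and 61 to 150. With the score removed the last was 394. A limma F test with the replicate block called 3051, 1763, 1 and 0 genes, and without it 1694, 1983, 2 and 0. The replicate block, used only here, took the adjusted p of Srebf2 to 0.0571 and genotype calls in ZT3 and saline libraries from 29 to 20. It changed no call of the 5 genes in the level tests. Nxf7 was called rhythmic in iMSN-D2RKO after saline with the score removed (0.00745), and Shisa8 in WT after saline without replicate 3 (0.00389). Both calls of Penk were also lost without a filter on low values (adjusted p = 0.0553 and 0.194). The cause of these moves was not tested. Values below 1 FPKM rest on few reads.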
